A study of Mus musculus with 12 samples.

Results

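The proteasome subunits are the 47 genes, of 52015 with usable values, whose symbol matched the Psm family of names (Psma, Psmb, Psmc, Psmd, Psme, Psmf or Psmg followed by a digit), with the inducible immunoproteasome genes Psmb8, Psmb9 and Psmb10 and named pseudogenes left out. No expression value was used to choose them. They comprise 16 genes of the 20S core particle (8 alpha and 8 beta), 17 genes of the 19S regulatory particle (6 ATPases and 11 non-ATPases), 3 chaperones that assemble the regulatory base, 5 activators or inhibitors, 4 chaperones that assemble the core, and 2 genes outside these classes. These 2 are Psmc3ip and Psme2b, of which Psme2b shares 99.4% of 794 aligned bases with the activator gene Psme2. At least 0.5 FPKM (a level corrected for gene length and for the reads mapped in the sample) in a group was reached by 45 of the 47, and the exceptions were Psma8 and Psmb11.

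RNA-seq was carried out on mpkCCD cells, a mouse line derived from principal cells of the cortical collecting duct of the kidney. Nfat5-KO cells lacked functional NFAT5, the transcription factor that governs the response to high osmolality, after CRISPR/Cas9 editing, and Scr cells had received a scramble guide RNA with no target. Each genotype was kept for 5 days in isotonic medium (300 mosmol/kg) or in hypertonic medium (600 mosmol/kg, made with 100 mM NaCl and 100 mM urea). The 4 groups were Scr_300 and Scr_600, with 2 libraries each, and Nfat5-KO_300 and Nfat5-KO_600, with 4 libraries each. All of the knockout libraries came from 2 clones (N1 and N3), so that knockout and clone cannot be told apart, and all cells share the mpkCCD background and the editing procedure.

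The deposited table holds 1 FPKM value per gene and group. Differences between groups therefore have no replicate check, no SD or p-value is given, and the depth behind each value is unknown. In bulk RNA, fewer expressing cells and less RNA per cell cannot be told apart. The targeted gene Nfat5 was at 5.61 FPKM in Scr_300, 7.93 in Scr_600, 3.47 in Nfat5-KO_300 and 6.88 in Nfat5-KO_600. An edited gene can still be transcribed, so these levels are no check of the protein. The 4 epithelial markers (Krt8, Krt18, Epcam, Cdh1) were at 72.7 FPKM or more in every group. The principal cell genes were mixed. Aqp2, Avpr2 and Elf5 stayed at or under 0.245 FPKM and Fxyd4 at or under 0.455. Over the groups, Aqp3 ran from 2.07 to 2.93 FPKM, Scnn1a from 1.31 to 7.03, Hsd11b2 from 0.383 to 6.18 and Gata3 from 3.41 to 30.0. The summed level of the 8 principal cell genes was 9.89, 8.86, 20.5 and 46.8 FPKM in Scr_300, Scr_600, Nfat5-KO_300 and Nfat5-KO_600, led by Gata3, and its part in the values below was not tested. Of the fibroblast, endothelial and leukocyte markers, 9 of 10 stayed at or under 0.221 FPKM and Cd74 lay between 0.324 and 1.09 FPKM. FPKM over all genes summed to 253756 in Scr_300, 231932 in Scr_600, 251080 in Nfat5-KO_300 and 212247 in Nfat5-KO_600.

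The proteasome is the protease that degrades ubiquitin-tagged proteins in the cytosol and nucleus. Its core is a barrel of alpha and beta rings with the active sites inside, and the alpha rings form the gate. The regulatory particle docks on the alpha ring. Its base holds a ring of ATPases that unfold substrates and push them into the core, and its lid removes the ubiquitin chain. Other caps can replace the regulatory particle, and dedicated chaperones guide the assembly of each part. Proteasome genes are known to be induced together by the transcription factor Nfe2l1 when proteasome activity falls short. High salt is known to damage proteins in cells of the renal medulla.

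Among the 31 core and regulatory genes over 0.5 FPKM, the highest of the 4 values was found in Nfat5-KO_300 for 24 genes and in Scr_300 for the other 7. The lowest value was found in Nfat5-KO_600 for 22 genes, in Scr_600 for 8 and in Scr_300 for 1, Psmc4. None of the 31 had its highest value in a hypertonic group. When the groups were scaled to the same FPKM sum, these counts became 22 in Nfat5-KO_300, 7 in Scr_300 and 2 in Nfat5-KO_600 for the highest value, and 14 in Nfat5-KO_600, 10 in Scr_600 and 7 in Scr_300 for the lowest. Such counts were not made over all genes. Of the 2487 other genes averaging 20 FPKM or more, 64.3% were lower in Scr_600 than Scr_300 and 71.3% in Nfat5-KO_600 than Nfat5-KO_300. The ratio of the highest to the lowest group value ran from 1.16 (Psmb5) to 1.82 (Psmc1), with a median of 1.47, so that no core or regulatory mRNA differed by more than 1.82-fold between any of the groups. Summed over the 14 core genes, FPKM was 1076 in Scr_300, 894 in Scr_600, 1199.5 in Nfat5-KO_300 and 842 in Nfat5-KO_600. For the 17 regulatory genes the sums were 1054, 965, 1292 and 952 in the same order. As a share of all FPKM in the group, the core took 0.424%, 0.385%, 0.478% and 0.397%, and the regulatory particle 0.415%, 0.416%, 0.515% and 0.448%. The regulatory share thus was nearly the same in Scr_300 and Scr_600, whereas both shares in Nfat5-KO_600 were below those of Nfat5-KO_300.

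**Figure D1:**
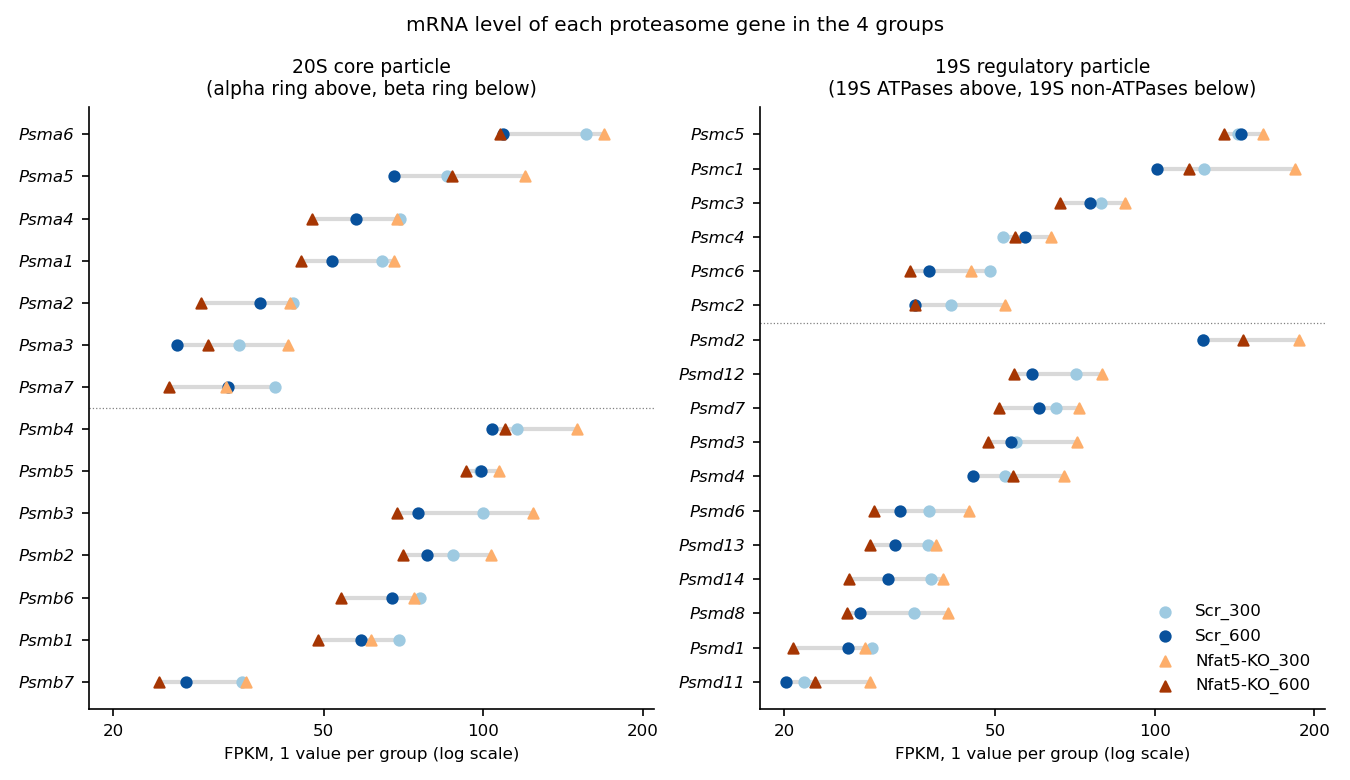
Each row is a gene of the 20S core particle (left) or the 19S regulatory particle (right), and the horizontal axis is FPKM on a log scale. Circles are Scr cells and triangles are Nfat5-KO cells, with the darker shade for 600 mosmol/kg and a grey bar from the lowest to the highest of the 4 values. Nfat5-KO_300 lies rightmost for 24 of the 31 genes and Nfat5-KO_600 leftmost for 22 (22 and 14 with the groups scaled to the same FPKM sum), and Psmb5 and Psmc5 have the shortest bars.

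The sequences before the start sites of 4 genes are shown because these genes mark the ends of the range described below or carry an enzymatic step. Psmb3 had the lowest ratio of Nfat5-KO_600 to Nfat5-KO_300 in the core and Psmb5 the highest. Psmb6 and Psmd14 encode a peptidase of the core and the deubiquitinase of the lid. Each sequence is the 250 bases before the RefSeq start site (GRCm38.p6), on the strand of the gene. Capitals mark TGACNNNGC (the core of the antioxidant response element, which Nfe2l1 and Nfe2l2 bind with small Maf proteins), CCAAT (the box bound by NF-Y) and TGGAAA (the core motif of NFAT proteins, NFAT5 included), each searched on both strands. The windows lie at chr11:97703184-97703433 on the plus strand for Psmb3, chr14:54617996-54618245 on the minus strand for Psmb5, chr11:70525107-70525356 on the plus strand for Psmb6 and chr2:61711444-61711693 on the plus strand for Psmd14.
Psmb3: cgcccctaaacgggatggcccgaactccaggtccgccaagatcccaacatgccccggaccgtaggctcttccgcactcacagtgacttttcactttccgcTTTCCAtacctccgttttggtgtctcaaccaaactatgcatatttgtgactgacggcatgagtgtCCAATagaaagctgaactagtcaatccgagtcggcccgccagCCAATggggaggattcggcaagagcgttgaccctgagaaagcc
Psmb5: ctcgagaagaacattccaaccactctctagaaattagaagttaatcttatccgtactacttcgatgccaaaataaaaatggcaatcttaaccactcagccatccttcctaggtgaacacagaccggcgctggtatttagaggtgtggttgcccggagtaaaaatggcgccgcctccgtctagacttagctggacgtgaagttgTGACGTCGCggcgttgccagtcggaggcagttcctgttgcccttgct
Psmb6: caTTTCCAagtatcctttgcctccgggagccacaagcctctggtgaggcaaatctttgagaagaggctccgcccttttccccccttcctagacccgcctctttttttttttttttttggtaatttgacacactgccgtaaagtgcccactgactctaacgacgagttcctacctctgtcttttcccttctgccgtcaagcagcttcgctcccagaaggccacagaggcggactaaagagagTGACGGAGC
Psmd14: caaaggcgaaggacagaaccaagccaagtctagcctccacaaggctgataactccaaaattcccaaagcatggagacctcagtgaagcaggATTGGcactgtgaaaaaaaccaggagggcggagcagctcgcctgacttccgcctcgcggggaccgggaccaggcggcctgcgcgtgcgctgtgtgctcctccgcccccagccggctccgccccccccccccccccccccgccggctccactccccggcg
Psmb3 holds CCAAT with its first base at -85 and at -43 from the start site and TGGAAA on the other strand at -150. In Psmb5 the only match was TGACNNNGC at -47, with the letters TGACGTCGC. Psmb6 holds TGACNNNGC at -9 and TGGAAA on the other strand at -248. The Psmd14 sequence shown holds CCAAT on the other strand at -159. Counting 250 bases before to 50 bases after the start site, 39 of the 47 genes had a RefSeq window, 42 windows in all. TGACNNNGC was found in 6 of these 42 (14.3%) against 12.4% of all 32851 windows, CCAAT in 14 (33.3%) against 37.4%, and TGGAAA in 7 (16.7%) against 21.4%. The genes with TGACNNNGC were Psmb5, Psmb6, Psmc6, Psmd12, Psmd9 and Psme4. A match is only a match of letters, and the shares among proteasome genes were close to those of all windows.

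The alpha subunits form the outer rings of the core, on which the caps dock. Psma6 was the most abundant alpha mRNA, with 156 FPKM in Scr_300, 109 in Scr_600, 169 in Nfat5-KO_300 and 108 in Nfat5-KO_600. It was the only alpha gene over 100 FPKM in all groups, and the hypertonic value was about the same in both genotypes. Psma5 was at 85.5 FPKM in Scr_300, 67.8 in Scr_600, 120.1 in Nfat5-KO_300 and 87.3 in Nfat5-KO_600, with both knockout values above the Scr value of the same medium. Psma7, by contrast, was at 40.4 FPKM in Scr_300, 33.01 in Scr_600, 32.7 in Nfat5-KO_300 and 25.6 in Nfat5-KO_600, with both knockout values below it. Psma3 was at 34.7 FPKM in Scr_300, 26.4 in Scr_600, 42.7 in Nfat5-KO_300 and 30.2 in Nfat5-KO_600 and, like Psma5, had both knockout values above the Scr value of the same medium. Its mRNA shares 685 bases at 100% identity with the processed pseudogene Gm13835, which was itself listed at 102 FPKM in Scr_300, 75.6 in Scr_600, 129.6 in Nfat5-KO_300 and 81.4 in Nfat5-KO_600. Reads from within these 685 bases match both genes, whereas Psma3 has 3894 exon bases in all. Psma1 (64.3, 51.9, 67.7 and 45.3 FPKM in Scr_300, Scr_600, Nfat5-KO_300 and Nfat5-KO_600), Psma2 (43.8, 37.8, 43.2 and 29.3) and Psma4 (69.6, 57.4, 68.6 and 47.4) shared another order, with nearly equal isotonic values and the lowest value in Nfat5-KO_600. Psma8, which replaces Psma7 in spermatocytes, was listed at 0 in all 4 groups.

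The beta subunits form the inner rings, and 3 of them cut peptides. Psmb5, the chymotrypsin-like subunit and the main target of proteasome inhibitors (chr14:54614119-54618022), was at 98.6 FPKM in Scr_300, 99.2 in Scr_600, 107 in Nfat5-KO_300 and 92.6 in Nfat5-KO_600. It was the most even of the 31 genes. Psmb6, the caspase-like subunit (chr11:70525367-70527858), was at 75.8 FPKM in Scr_300, 67.2 in Scr_600, 74.03 in Nfat5-KO_300 and 53.9 in Nfat5-KO_600. Psmb7, the trypsin-like subunit (chr2:38588036-38644087), was at 35.1 FPKM in Scr_300, 27.5 in Scr_600, 35.7 in Nfat5-KO_300 and 24.4 in Nfat5-KO_600. Both had their lowest value in Nfat5-KO_600 and isotonic values that were nearly the same in the 2 genotypes. The catalytic subunits are needed in equal number, and their FPKM values differed: in Scr_300 Psmb5 was at 98.6 FPKM and Psmb7 at 35.1. FPKM depends on the exon length assigned to a gene, which was 899 bases for Psmb5 and 3421 for Psmb7 in GENCODE M21. In addition, 405 exon bases of Psmb7 overlap Nek6 on the opposite strand. The part of length and overlap in this gap was not tested. Of the subunits without an active site, Psmb4 was the most abundant, at 116 FPKM in Scr_300, 104 in Scr_600, 149.9 in Nfat5-KO_300 and 110.0 in Nfat5-KO_600. Psmb3 was at 99.9 FPKM in Scr_300, 75.2 in Scr_600, 124 in Nfat5-KO_300 and 68.8 in Nfat5-KO_600 and had the widest range of the beta genes. Psmb1 was at 69.4 FPKM in Scr_300, 58.8 in Scr_600, 61.3 in Nfat5-KO_300 and 48.7 in Nfat5-KO_600 and Psmb2 at 87.5 FPKM in Scr_300, 78.4 in Scr_600, 104 in Nfat5-KO_300 and 70.5 in Nfat5-KO_600. Psmb11, the beta subunit of thymic cortical epithelium, whose gene lies at chr14:54621433-54629556 beside Psmb5, was at 0.0029 FPKM in Scr_300, 0.0056 in Scr_600, 0.016 in Nfat5-KO_300 and 0.028 in Nfat5-KO_600.

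The ATPases of the regulatory base form the motor of the proteasome. Psmc5 was the most abundant, with 143 FPKM in Scr_300, 146 in Scr_600, 160.1 in Nfat5-KO_300 and 135 in Nfat5-KO_600, and changed little. Psmc1, whose tail helps to open the gate of the core, was at 124 FPKM in Scr_300, 101 in Scr_600, 184 in Nfat5-KO_300 and 116 in Nfat5-KO_600 (chr12:100110154-100123405). Its knockout values lay above the Scr values in both media, and its value in Nfat5-KO_300 stood clear of the other 3. Psmc2 was the least abundant ATPase, at 41.3 FPKM in Scr_300, 35.3 in Scr_600, 52.1 in Nfat5-KO_300 and 35.3 in Nfat5-KO_600, and the hypertonic values were equal in both genotypes. Psmc4 was at 51.7 FPKM in Scr_300, 56.9 in Scr_600, 63.7 in Nfat5-KO_300 and 54.6 in Nfat5-KO_600 and was the only ATPase with its lowest value in Scr_300. Psmc6 was at 48.9 FPKM in Scr_300, 37.6 in Scr_600, 44.9 in Nfat5-KO_300 and 34.5 in Nfat5-KO_600, lower in both hypertonic groups. Psmc3 was at 79.2 FPKM in Scr_300, 75.6 in Scr_600, 88.01 in Nfat5-KO_300 and 66.4 in Nfat5-KO_600.

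Among the non-ATPases, Psmd2, a scaffold of the base on which shuttle factors and the deubiquitinase Usp14 dock, was the most abundant, at 124 FPKM in Scr_300, 123 in Scr_600, 188 in Nfat5-KO_300 and 147 in Nfat5-KO_600 (chr16:20651652-20663414). Its Scr values were nearly the same in both media and both knockout values were above them. Psmd4, the ubiquitin receptor (chr3:95032694-95042614), was at 52.1 FPKM in Scr_300, 45.5 in Scr_600, 67.4 in Nfat5-KO_300 and 54.1 in Nfat5-KO_600, again with both knockout values above the Scr value of the same medium. Psmd14, the metalloprotease that cuts the ubiquitin chain off the substrate (chr2:61711694-61800376), was at 37.8 FPKM in Scr_300, 31.3 in Scr_600, 39.9 in Nfat5-KO_300 and 26.5 in Nfat5-KO_600. It was nearly equal in both genotypes at 300 mosmol/kg and lowest in Nfat5-KO_600. Psmd7, the inactive partner of Psmd14, was at 65.1 FPKM in Scr_300, 60.4 in Scr_600, 72.03 in Nfat5-KO_300 and 50.9 in Nfat5-KO_600. Psmd11, a lid subunit that holds lid and core together, was the least abundant over the 4 groups, with 21.8 FPKM in Scr_300, 20.1 in Scr_600, 29.04 in Nfat5-KO_300 and 22.8 in Nfat5-KO_600. Psmd6 and Psmd8, which like Psmd11 belong to the horseshoe of the lid, were at 37.6 FPKM in Scr_300, 33.1 in Scr_600, 44.6 in Nfat5-KO_300 and 29.5 in Nfat5-KO_600 and at 35.1 FPKM in Scr_300, 27.8 in Scr_600, 40.8 in Nfat5-KO_300 and 26.3 in Nfat5-KO_600, respectively. Psmd3, also of this horseshoe, was at 54.7 FPKM in Scr_300, 53.4 in Scr_600, 71.4 in Nfat5-KO_300 and 48.5 in Nfat5-KO_600, with a clear excess in Nfat5-KO_300. The remaining 3 genes, Psmd1, Psmd12 and Psmd13, lay between 20.8 FPKM (Psmd1 in Nfat5-KO_600) and 79.7 FPKM (Psmd12 in Nfat5-KO_300).

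The genes outside the core and the regulatory particle were mostly expressed at lower levels, with Psme3 as the exception. Psmd5, Psmd9 and Psmd10 encode chaperones that hold ATPases until the base is complete. Psmd5 was at 16.6 FPKM in Scr_300, 21.3 in Scr_600, 20.1 in Nfat5-KO_300 and 17.6 in Nfat5-KO_600, and here Scr_600 was the highest group. Psmd9 was at 5.81 FPKM in Scr_300, 5.32 in Scr_600, 6.85 in Nfat5-KO_300 and 4.64 in Nfat5-KO_600 and Psmd10 at 16.7 FPKM in Scr_300, 16.1 in Scr_600, 15.5 in Nfat5-KO_300 and 11.9 in Nfat5-KO_600. Psme3, which forms a nuclear cap of the core, was at 73.2 FPKM in Scr_300, 69.4 in Scr_600, 82.5 in Nfat5-KO_300 and 57.2 in Nfat5-KO_600. Psme1 and Psme2, the subunits of the interferon-inducible cap, were at 28.4 FPKM in Scr_300, 27.1 in Scr_600, 25.9 in Nfat5-KO_300 and 22.1 in Nfat5-KO_600 and at 13.7 FPKM in Scr_300, 12.2 in Scr_600, 12.2 in Nfat5-KO_300 and 9.63 in Nfat5-KO_600. Psme4, the single-chain activator known for its part in sperm formation, was at 13.2 FPKM in Scr_300, 12.1 in Scr_600, 13.04 in Nfat5-KO_300 and 11.8 in Nfat5-KO_600 and was the most even of the 45 genes. Psmf1, known as an inhibitor of the core in vitro, was at 9.76 FPKM in Scr_300, 8.96 in Scr_600, 10.7 in Nfat5-KO_300 and 6.69 in Nfat5-KO_600.

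The 4 chaperones of the core act as 2 pairs that guide the alpha ring. Of the first pair, Psmg1 was at 11.9 FPKM in Scr_300, 8.68 in Scr_600, 13.01 in Nfat5-KO_300 and 9.53 in Nfat5-KO_600 and Psmg2 at 17.5 FPKM in Scr_300, 14.98 in Scr_600, 20.6 in Nfat5-KO_300 and 16.3 in Nfat5-KO_600. Of the second pair, Psmg3 was at 4.37 FPKM in Scr_300, 4.30 in Scr_600, 5.75 in Nfat5-KO_300 and 4.82 in Nfat5-KO_600, the lowest mean of the expressed genes. Its partner Psmg4 was at 20.4 FPKM in Scr_300, 15.9 in Scr_600, 18.4 in Nfat5-KO_300 and 8.40 in Nfat5-KO_600. The value of Psmg4 in Nfat5-KO_600 was less than that of the other 3 groups by a wide margin, and its range over the groups, 2.42-fold, was the widest of the 45. Psme2b, which shares 99.4% of 794 aligned bases with Psme2, was at 12.2 FPKM in Scr_300, 15.6 in Scr_600, 13.7 in Nfat5-KO_300 and 12.8 in Nfat5-KO_600, and reads of these 2 genes may be exchanged. Psmc3ip, a recombination factor of meiosis named for its binding to Psmc3, was at 13.7 FPKM in Scr_300, 11.8 in Scr_600, 11.4 in Nfat5-KO_300 and 8.92 in Nfat5-KO_600, and 385 bases of its exons overlap Mlx on the opposite strand, which was at 11.7 to 14.6 FPKM. Whether the counting used strand is not given in the sources used here.

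To ask how hypertonicity alone changed the proteasome genes, Scr_600 was set against Scr_300. Log2 ratios were taken of FPKM + 0.1, which understates the change of low genes, and a gene is called higher or lower from a 1.2-fold difference. Of the 14 core genes, 13 were lower in Scr_600 and 8 were called lower, and the median log2 ratio was -0.28 (1.22-fold lower). Of the 17 regulatory genes, 15 were lower and 5 were called lower, with a median of -0.18 (1.13-fold lower). Over all 12929 genes tested the median was -0.04, with 54.6% lower by any amount, 26.7% called lower and 22.9% called higher. Of the 2487 other genes averaging 20 FPKM or more, 30.6% were called lower. The regulatory genes called lower (29.4%) were thus near both shares, and the core genes (57.1%) above them. No core or regulatory gene was called higher. With the groups scaled to the same FPKM sum, 3 core and 0 regulatory genes were called lower and 1 regulatory gene, Psmc4, was called higher. The alpha ring had the lowest median of the classes, -0.31, and 6 of its 7 genes were called lower, with Psma6 at -0.52 (1.43-fold lower) and Psma3 at -0.39. The beta ring had 2 of 7 called lower, Psmb3 at -0.41 and Psmb7 at -0.35, whereas Psmb5 was at 0.01. Of the ATPases, Psmc6 (-0.38) and Psmc1 (-0.29) were called lower, while Psmc5 was at 0.02 and Psmc4 at 0.14. The non-ATPases called lower were Psmd8 (-0.33), Psmd12 (-0.27) and Psmd14 (-0.27), and Psmd2 and Psmd3 hardly differed. Psmd5 at 0.36 and Psme2b at 0.35 were the only 2 of the 45 genes called higher, and Psmg1 at -0.45 was the second lowest. No proteasome gene reached 1.5-fold in Scr cells, where 9.01% of all genes were lower and 10.4% higher by this much.

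**Figure D2:**
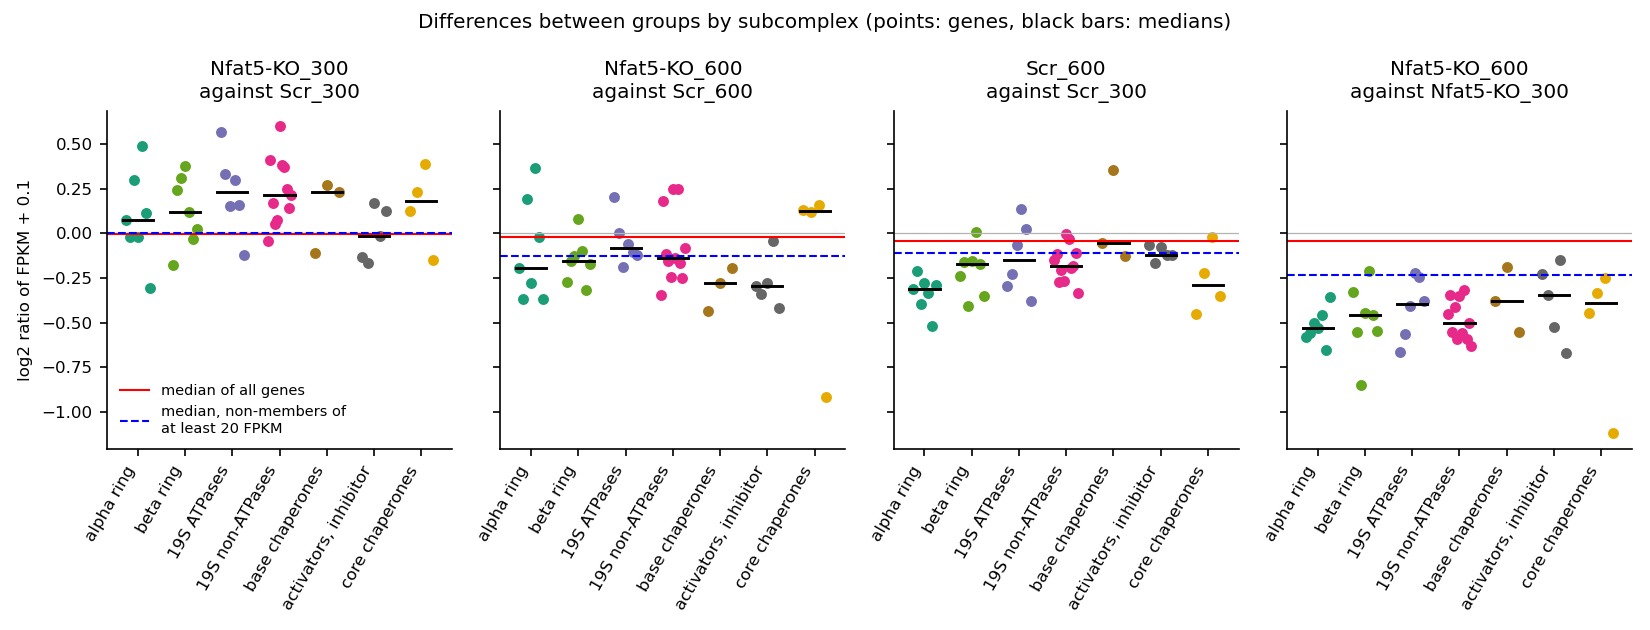
Each panel is a comparison, each point a gene over 0.5 FPKM, and the vertical axis the log2 ratio of FPKM + 0.1. Black bars are class medians, the red line is the median of all genes tested and the blue dashed line that of the other genes averaging 20 FPKM or more. Psmc3ip and Psme2b, which belong to none of these classes, are not drawn. In the fourth panel all points lie below 0. With these 2 included, 6 of the 45 genes turn positive when the groups are scaled to the same FPKM sum. In the second panel the medians of 6 of the 7 classes lie below 0, of which that of the ATPases turns positive under the same scaling.

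In Nfat5-KO cells the same change of medium was accompanied by lower values throughout. All 14 core genes had lower values at 600 than at 300 mosmol/kg and 13 were called lower, with a median log2 ratio of -0.52 (1.43-fold lower). All 17 regulatory genes were lower and 15 were called lower, with a median of -0.45 (1.37-fold lower). Over all 12982 genes tested the median was -0.04, with 52.9% lower by any amount, 32.6% called lower and 28.9% called higher. Of the 2487 non-proteasome genes averaging 20 FPKM or more, 46.6% were called lower. The 14 proteasome genes outside the 2 particles were lower too, so that 45 of 45 were below 0 and 37 were called lower. A 1.5-fold lower value was reached by 8 of the 45, against 13.8% of all genes tested. It was also reached by 469 of the 2487 non-proteasome genes averaging 20 FPKM or more, so the 8 of 45 were no greater a share. The 8 genes were Psmg4 (-1.12, 2.17-fold lower), Psmb3 (-0.85, 1.80-fold), Psmf1 (-0.67), Psmc1 (-0.66), Psma6 (-0.65), Psmd8 (-0.63), Psmd14 (-0.59) and Psmd6 (-0.59). In the alpha ring and among the non-ATPases, all 7 and all 11 genes were called lower. The genes that were not called belonged to the beta ring (Psmb5, -0.21), the ATPases (Psmc4, -0.22, and Psmc5, -0.24), the base chaperones (Psmd5, -0.19), the activators (Psme1, -0.23, and Psme4, -0.15) and the core chaperones (Psmg3, -0.25), beside Psme2b (-0.10).

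Level and scaling moved with both comparisons. For the 2487 other genes that averaged 20 FPKM or more, Scr cells had a median log2 ratio of -0.11 and Nfat5-KO cells one of -0.23, with 71.3% of these genes below 0 in the latter. In the range from 40 to 80 FPKM, which held 13 proteasome genes, the median of all 660 genes was -0.12 in Scr and -0.25 in Nfat5-KO cells, against -0.20 and -0.50 for the proteasome genes. From 80 to 160 FPKM (292 genes, 9 of the proteasome) the medians were -0.15 and -0.35 for all genes and -0.16 and -0.46 for the proteasome genes. When each group was scaled to the same FPKM sum, every gene moved up by 0.13 in the Scr comparison and by 0.24 in the Nfat5-KO comparison. The Scr medians then became -0.15 for the core and -0.05 for the regulatory particle, and the Nfat5-KO medians -0.27 and -0.21, beside 0.09 and 0.20 for all genes. Under this scaling 29 of the 31 core and regulatory genes of Nfat5-KO cells were still lower at 600 than at 300 mosmol/kg, the exceptions being Psmb5 and Psmc4. In Scr cells 23 of the 31 were still lower. The part that level and scaling play in the lower values was not tested.

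**Figure D3:**
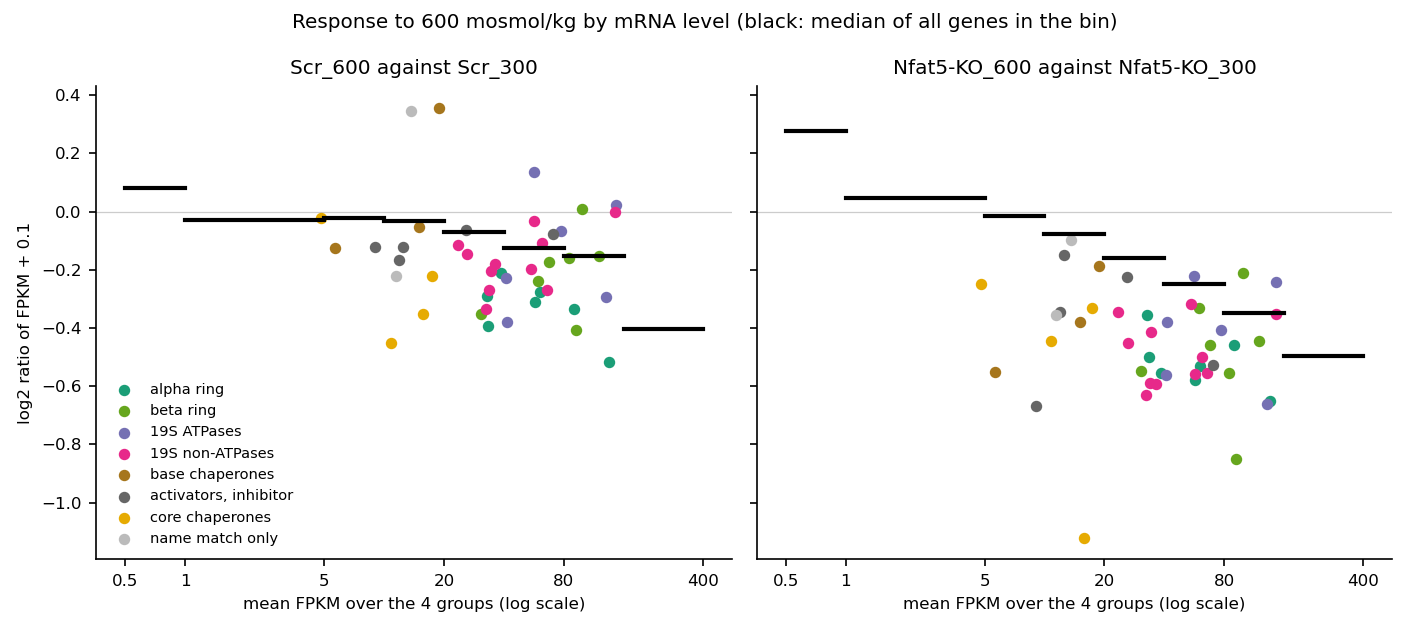
The horizontal axis is the mean FPKM over the 4 groups on a log scale and the vertical axis the log2 ratio of FPKM + 0.1 of hypertonic to isotonic medium, in Scr cells (left) and Nfat5-KO cells (right). Points are proteasome genes and black lines the median of all genes in a range of FPKM. The lines drop from 0.08 to -0.40 in Scr cells and from 0.28 to -0.50 in Nfat5-KO cells as the level increases, and 33 (Scr) and 42 (Nfat5-KO) of the 45 proteasome genes lie below the median of their range.

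The responses of the 2 genotypes were then set against each other. The log2 response of Nfat5-KO cells minus that of Scr cells was below 0 in 14 of 14 core genes (median -0.24) and in 16 of 17 regulatory genes (median -0.32), against 52.0% of all 13414 genes (median -0.01). Of the other genes averaging 20 FPKM or more, 67.1% were below 0, with a median of -0.12. The response of Nfat5-KO cells was lower by at least 1.2-fold for 6 core and 13 regulatory genes, against 25.5% of all genes. In the regulatory particle the widest gap was that of Psmd3 (-0.52), which went from 54.7 to 53.4 FPKM in Scr cells and from 71.4 to 48.5 FPKM in Nfat5-KO cells. Psmb3 (-0.44) had the widest gap of the core. Psmc6 had none (0.00), and Psma7 (-0.06) and Psmb1 (-0.09) had the narrowest gaps of the core. Outside both particles, Psmg4 (-0.77), Psmd5 (-0.55), Psmf1 (-0.55), Psme3 (-0.45) and Psme2b (-0.45) responded more negatively in Nfat5-KO cells, and Psmg1 (0.01) and Psme4 (-0.03) responded alike within 0.03. With the groups scaled to the same FPKM sum, the difference was below 0 in 11 of 14 core genes (median -0.12) and in 16 of 17 regulatory genes (median -0.21), beside a median of 0.09 for all genes. Across the 31 genes the responses of the 2 genotypes had a Pearson correlation of 0.65, and across all genes of 0.59. The genes share the same 4 group values, so these correlations are descriptions.

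**Figure D4:**
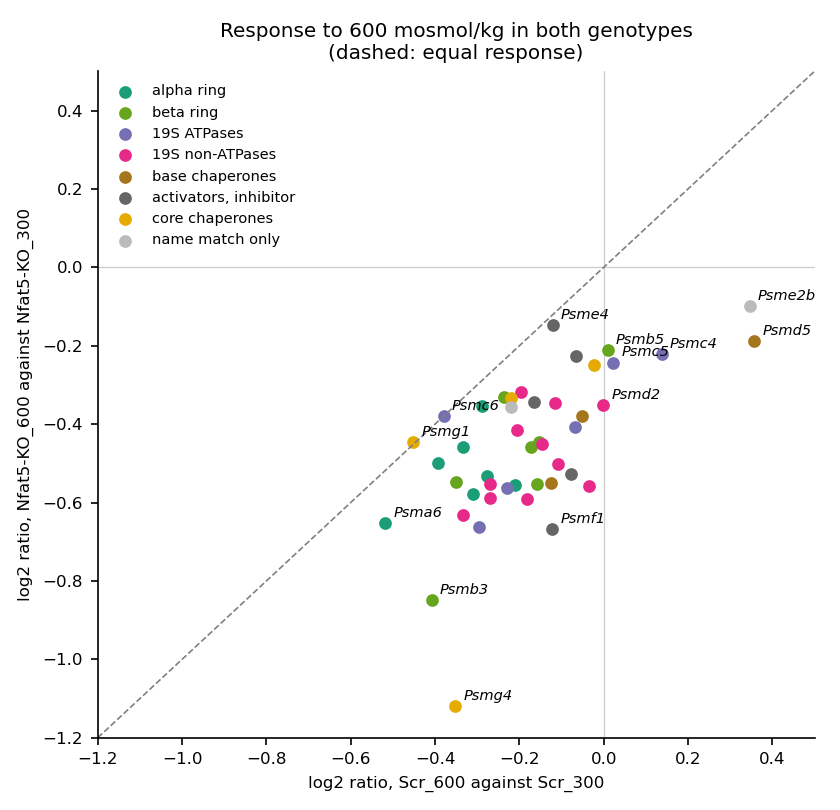
Each point is a proteasome gene, with its log2 ratio of hypertonic to isotonic medium in Scr cells on the horizontal axis and in Nfat5-KO cells on the vertical axis (FPKM + 0.1). The dashed line marks equal responses, and 43 of the 45 points lie below it (39 with the groups scaled to the same FPKM sum), with Psmc6 and Psmg1 next to it. Psmg4 and Psmb3 lie lowest, and Psmd5, Psme2b and Psmc4 lie furthest to the right.

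Nfat5-KO and Scr cells were then compared at each tonicity, where knockout and clone cannot be told apart. At 300 mosmol/kg, 9 of 14 core genes and 15 of 17 regulatory genes were higher in Nfat5-KO_300 than in Scr_300, and the medians were 0.09 and 0.22 (1.16-fold higher), against -0.001 for all 12704 genes tested, of which 49.8% were higher and 50.2% lower by any amount. In the core 4 genes were called higher and 1 lower, and in the regulatory particle 7 were called higher and 0 lower, with 19.7% of all genes called higher and 19.6% lower. The core genes called higher were Psma5 (0.49), Psmb4 (0.38), Psmb3 (0.31) and Psma3 (0.30), and the one called lower was Psma7 (-0.30). The regulatory genes called higher were Psmd2 (0.60, 1.52-fold), Psmc1 (0.57), Psmd11 (0.41), Psmd3 (0.38), Psmd4 (0.37), Psmc2 (0.33) and Psmc4 (0.30). Psmd2 was the only one of the 45 to reach 1.5-fold, which 5.27% of all genes did upward and 6.21% downward. The peptidase genes differed little, with Psmb5 at 0.12, Psmb6 at -0.03 and Psmb7 at 0.02. The same held for Psmd14 at 0.08. Outside the 2 particles, Psmg3 (0.39) and Psmd5 (0.27) were called higher.

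At 600 mosmol/kg more of these genes were lower than higher in the knockout, and 16 of the 31 core and regulatory genes were higher in Nfat5-KO cells at 300 and lower at 600 mosmol/kg (10 of 31 with the groups scaled to the same FPKM sum). Another 8 were higher at both and 7 lower at both, while 0 were lower at 300 and higher at 600 mosmol/kg. With equal FPKM sums, 14 were higher at both, 6 lower at both and 1 lower at 300 and higher at 600 mosmol/kg. The genes higher at both (14) then outnumbered those higher at 300 and lower at 600 mosmol/kg (10). With median-of-ratios factors, 17 were higher at 300 and lower at 600 mosmol/kg, 7 higher at both and 7 lower at both. These counts were not made over all genes. In Nfat5-KO_600, 11 of 14 core and 12 of 17 regulatory genes were lower than in Scr_600, with medians of -0.16 and -0.11, the second of which became 0.01 when the groups were scaled to the same FPKM sum. The median of all 13063 genes tested was -0.02, with 52.2% lower and 47.8% higher by any amount, and that of the 2487 other genes averaging 20 FPKM or more was -0.13. In the core 5 genes were called lower and 1 higher, and in the regulatory particle 1 lower and 0 higher, against 25.4% of all genes called lower and 24.3% higher. The genes called lower were Psma7 (-0.37), Psma2 (-0.37), Psmb6 (-0.32), Psma4 (-0.28), Psmb1 (-0.27) and Psmd1 (-0.35), and Psma5 (0.37) was called higher. These shares were no greater than those of all genes, except for the 5 of 14 core genes called lower, which became 0 of 14 with equal FPKM sums. Outside the 2 particles 9 of 14 genes were called lower, which became 4 of 14 with equal FPKM sums, led by Psmg4 (-0.92, 1.89-fold lower), Psmd10 (-0.44), Psmf1 (-0.42) and Psmc3ip (-0.40). Psmg4 was the only one with a 1.5-fold difference (9.44% of all genes lower, 9.84% higher). Across the 31 core and regulatory genes the log2 ratios of Nfat5-KO to Scr cells at 300 and 600 mosmol/kg had a Pearson correlation of 0.83, and across all genes of 0.44.

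The position of a gene on its chromosome moved with its ratio of Nfat5-KO to Scr cells. For each gene the median log2 ratio of the other genes starting within 5 Mb on either side was taken, over genes averaging 1 FPKM or more. Across the 31 core and regulatory genes this median had a Pearson correlation with the ratio of the gene itself of 0.81 at 300 mosmol/kg and of 0.78 at 600 mosmol/kg. For the hypertonic response this correlation was 0.29 (Scr) and -0.01 (Nfat5-KO). Genes within a region share neighbours, so these values are descriptions. The correlation with neighbours was not calculated over all genes, so whether it is particular to proteasome genes is not known. The neighbours of 7 genes had a median of 0.15 or more in Nfat5-KO_300 against Scr_300. These were Psma3 and Psmc1 on chromosome 12, Psma5, Psmb4 and Psmd4 on chromosome 3, Psmd2 on chromosome 16 and Psmg3 on chromosome 5. All 7 were called higher at 300 mosmol/kg (median 0.39, lowest 0.30), and all 7 were above 0 at 600 mosmol/kg (median 0.20). The neighbours of Psmd2 (85 genes) had a median of 0.26 and those of Psmc1 (40 genes) of 0.24, against 0.60 and 0.57 for the genes themselves. Psma7, the gene with the lowest ratio, had neighbours (48 genes) with a median of -0.27, beside -0.30 of its own. The neighbourhood was not raised for Psmd11 (0.02), Psmd3 (0.02), Psmb3 (0.02), Psmc4 (0.03), Psmd5 (0.06) and Psmc2 (-0.07), which were also called higher.

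Without these 7 genes, the remaining 38 had a median of 0.12 at 300 mosmol/kg, with 25 higher, 6 called higher and 1 called lower, and a median of -0.19 at 600 mosmol/kg, with 4 higher and 15 called lower. With the 7 included, 13 of the 45 proteasome genes (28.9%) were called higher at 300 mosmol/kg. Of all genes, 19.7% were called higher and 19.6% lower at 300 mosmol/kg, and 25.4% were called lower at 600 mosmol/kg. The 7 genes were set aside by ratios of this comparison, but no such step was made for all genes. The counts of the remaining 38 therefore cannot be read against these shares. Of the 11 core genes among them, 6 were higher at 300 mosmol/kg (median 0.02) and 0 at 600 mosmol/kg (median -0.20). Of the 14 regulatory genes, 12 were higher at 300 mosmol/kg (median 0.16) and 2 at 600 mosmol/kg (median -0.13). The part of the chromosomal position in these values was not tested.

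**Figure D5:**
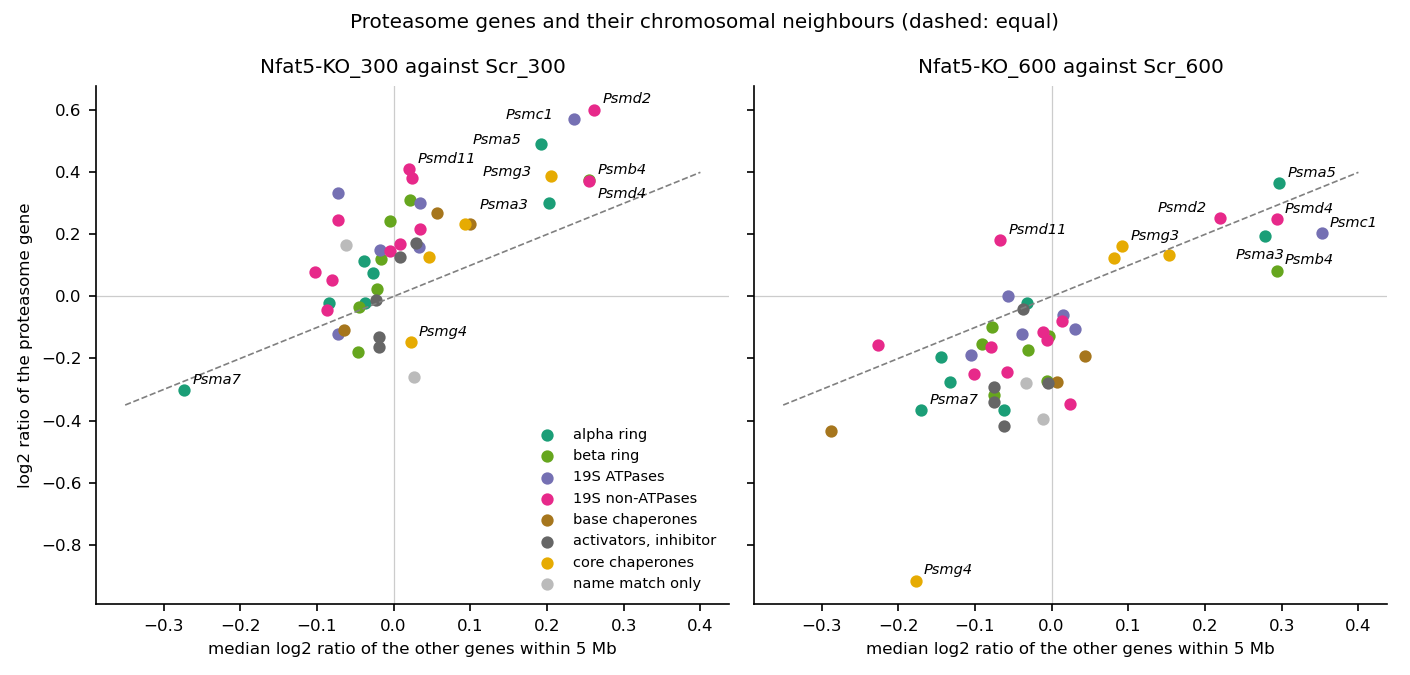
Each point is a proteasome gene, with the median log2 ratio of Nfat5-KO to Scr cells of the other genes within 5 Mb on the horizontal axis and its own log2 ratio on the vertical axis, at 300 mosmol/kg (left) and 600 mosmol/kg (right). The dashed line marks equal values. The 7 genes with a neighbour median of at least 0.15 at 300 mosmol/kg lie in the upper right of both panels, and Psmg4 lies far below the line at 600 mosmol/kg.

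Genes that act on or with the proteasome were examined next. Of the immunoproteasome subunits, which replace the standard peptidases after interferon, Psmb8 was at or under 0.018 FPKM and Psmb9 between 0.139 and 0.223 FPKM. Psmb10 was at 8.10 FPKM in Scr_300, 9.02 in Scr_600, 8.18 in Nfat5-KO_300 and 4.56 in Nfat5-KO_600, and thus lower in Nfat5-KO_600 than in any other group. Nfe2l1, the factor that induces proteasome genes, was at 36.4 FPKM in Scr_300, 45.2 in Scr_600, 34.8 in Nfat5-KO_300 and 38.6 in Nfat5-KO_600, higher in hypertonic than isotonic medium in both genotypes (log2 ratio 0.31 for Scr and 0.15 for Nfat5-KO). Of the 10 genes of its list (Nfe2l1, the enzymes that activate it, its relatives and partners, and NF-Y), 8 were higher in Scr_600 than in Scr_300 and 5 were called higher, at a median of 0.26, where 45.4% of all genes were higher and 22.9% called higher. In Nfat5-KO cells 6 of 10 were higher and 0 were called higher, at a median of 0.15, where 47.1% of all genes were higher and 28.9% called higher. Mafk, a small Maf partner of Nfe2l1, was at 8.33 FPKM in Scr_300, 11.3 in Scr_600, 11.8 in Nfat5-KO_300 and 11.6 in Nfat5-KO_600, and Maff, another, at 9.88 FPKM in Scr_300, 12.3 in Scr_600, 10.8 in Nfat5-KO_300 and 4.73 in Nfat5-KO_600. Nfe2l2, the related factor of the oxidative stress response, was at 26.4 FPKM in Scr_300, 28.5 in Scr_600, 21.7 in Nfat5-KO_300 and 25.9 in Nfat5-KO_600. Nfyb, a subunit of NF-Y, was at 11.1 FPKM in Scr_300, 7.69 in Scr_600, 9.80 in Nfat5-KO_300 and 8.34 in Nfat5-KO_600. In both genotypes most proteasome genes were lower in hypertonic medium, where the mRNA of Nfe2l1 was higher. Only mRNA was measured, and a link of Nfe2l1 to these values was not tested.

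Of 16 expressed proteasome partners (shuttles, deubiquitinases and assembly factors), 4 were called lower in Scr_600 against Scr_300 and 8 in Nfat5-KO_600 against Nfat5-KO_300, while 2 were called higher in each. Of all genes, 26.7% and 32.6% were called lower and 22.9% and 28.9% higher. Of the 2487 non-proteasome genes averaging 20 FPKM or more, 30.6% and 46.6% were called lower. The 8 of 16 (50%) lie above the share of all genes but near that of these abundant genes. The 2 called higher in both were AI314180, which tethers proteasomes and was at 46.8 FPKM in Scr_300, 61.6 in Scr_600, 45.2 in Nfat5-KO_300 and 60.9 in Nfat5-KO_600, and Ubqln4, a shuttle at 32.7 FPKM in Scr_300, 39.5 in Scr_600, 41.2 in Nfat5-KO_300 and 52.2 in Nfat5-KO_600. Zfand2a, a stress-induced zinc finger protein that binds the proteasome, was at 8.38 FPKM in Scr_300, 9.29 in Scr_600, 17.5 in Nfat5-KO_300 and 18.1 in Nfat5-KO_600. It was higher in the knockout in both media, and no proteasome subunit was higher in the knockout by this much. Zfand5, a zinc finger protein that activates the proteasome, was at 12.4 FPKM in Scr_300, 13.98 in Scr_600, 10.9 in Nfat5-KO_300 and 11.5 in Nfat5-KO_600. Among the 11 expressed genes of the ubiquitin and p97 list, Rps27a, a fusion of ubiquitin and a ribosomal protein, was at 186 FPKM in Scr_300, 74.1 in Scr_600, 183 in Nfat5-KO_300 and 72.2 in Nfat5-KO_600. Ufd1, a cofactor of p97, was at 11.01 FPKM in Scr_300, 10.4 in Scr_600, 16.04 in Nfat5-KO_300 and 13.8 in Nfat5-KO_600. Of the 11, 2 (Scr) and 5 (Nfat5-KO) were called lower in hypertonic medium. The shares were 26.7% and 32.6% for all genes and 30.6% and 46.6% for the abundant genes.

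Values of 3 other large complexes are set beside those of the proteasome. The 8 subunits of the chaperonin CCT, which folds actin and tubulin, had medians of -0.38 (Scr) and -0.65 (Nfat5-KO) for hypertonic against isotonic medium, with 7 and 8 called lower. The cytosolic ribosomal proteins had medians of -0.57 (86 genes) and -0.63 (87 genes). The V-ATPase, the proton pump of intercalated cells and lysosomes, had medians of -0.03 and -0.02 over 19 genes. The difference between the genotypes in this response had a median of -0.25 for CCT, -0.06 for the ribosomal proteins and -0.0013 for the V-ATPase (20 genes), beside -0.24 for the proteasome core and -0.32 for the regulatory particle. In Nfat5-KO_300 against Scr_300 the medians were 0.01 for CCT, -0.02 for the V-ATPase and -0.10 for the ribosomal proteins, beside 0.09 and 0.22. These are side-by-side values of complexes with different levels and gene lengths, and no test of a difference between complexes was made.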

How the data were processed

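Libraries of 12 mpkCCD cultures were prepared with poly-A selection. Per the authors, low-quality and adapter reads were dropped, HISAT2 aligned the rest to mm10 (GRCm38), HTSeq assigned them to genes, and RPKM was derived. The deposited values are FPKM, 1 per gene and group. The annotation release, the tool versions and the way in which libraries were merged into a group value are not given in the sources used here. The table has 54839 rows. Left out were 2436 rows with no value, 311 exact duplicates and 37 symbols whose rows disagreed.

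Log2 ratios of FPKM + 0.1 were calculated for 4 comparisons, keeping genes that reached 0.5 FPKM in either group. Genes at least 1.2-fold different were called, with 1.5-fold as a second limit. No test was possible with 1 value per group, and the depth per library is unknown, which limits the precision most for genes of few reads. The proteasome genes and the lists were chosen with earlier results of these data known. Named are the peptidase subunits, Psmd14, Psmd4, Psme4, Psmf1 and Nfe2l1, the highest and lowest gene of each class, the 3 highest and 3 lowest ratios of each comparison, every gene under 0.5 FPKM or at least 1.5-fold different, and the 2 highest and 2 lowest ratios of the other lists, of which 1 gene is not reported here. Others named in the text, such as Psmd3 and Psmc6, were chosen after their values were seen. Positions and lengths come from GENCODE M21 (47 of 47 symbols matched), promoters from RefSeq (GRCm38.p6), and pseudogene copies of at least 90% identity over 200 bases from minimap2 2.31-r1302. The ratio and count steps were tested on simulated data. Python 3.11.15, numpy 2.4.6, pandas 2.3.3 and matplotlib 3.10.9 were used. Alternatives were other pseudocounts, filters, scalings and limits.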

Additional observations from a re-analysis of the deposited data

How the results depend on the processing

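No paired analysis was possible because the table holds 1 value per group, and for the same reason no replicate could be left out. Of the medians and counts of called genes of the core and the regulatory particle, 92 medians and 141 counts stayed within 0.1 (log2) or 1.5 times of the value reported, and 18 medians and 35 counts did not. Among those that stayed are settings that could not move the core and regulatory values, because they kept the same genes. These were the means of at least 5 and 20 FPKM and leaving out Psma8, Psmb11, Psmc3ip and Psme2b. With the groups scaled to the same FPKM sum, the core and regulatory medians were -0.0351 and 0.0136 in Nfat5-KO_600 against Scr_600, -0.154 and -0.0520 in Scr_600 against Scr_300, -0.27 and -0.21 in Nfat5-KO_600 against Nfat5-KO_300, and -0.12 and -0.21 for the difference of the responses (-0.17 over all proteasome genes). The counts in Nfat5-KO_600 against Scr_600 were then 2 core genes higher and 0 lower and 4 regulatory genes higher and 0 lower. In Scr_600 against Scr_300 they were 3 core genes lower and 1 regulatory gene higher and 0 lower, and in Nfat5-KO_600 against Nfat5-KO_300 they were 7 core and 7 regulatory genes lower. The cause was not tested.

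Calls at 1.5-fold left 0 core genes higher or lower and 1 regulatory gene higher in Nfat5-KO_300 against Scr_300, 0 core genes higher or lower and 0 regulatory genes lower in Nfat5-KO_600 against Scr_600, 0 and 0 lower in Scr_600 against Scr_300, and 2 core and 4 regulatory genes lower in Nfat5-KO_600 against Nfat5-KO_300. Median-of-ratios factors gave 3 regulatory genes lower in Nfat5-KO_600 against Scr_600 and 3 in Scr_600 against Scr_300. Without the filter, which adds Psmb11, 2 core genes were higher in Nfat5-KO_600 against Scr_600. A pseudocount of 1 or 0.01 moved none of these values beyond those limits. A mean of at least 5 FPKM and leaving out Psmc3ip and Psme2b kept the same core and regulatory genes.

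The next 3 alternatives were chosen after seeing the data. With the trend of level and exon length over all genes removed, the core and regulatory medians were -0.000883 and 0.0349 in Nfat5-KO_600 against Scr_600 (3 core genes higher, 0 lower, 3 regulatory genes higher), -0.24 and -0.23 in Nfat5-KO_600 against Nfat5-KO_300 (6 and 8 genes lower), and -0.0884 and -0.175 for the difference of the responses (-0.17 over all proteasome genes). In Scr_600 against Scr_300 the core median was -0.18, with 4 core genes and 1 regulatory gene lower. With the median of the neighbouring genes subtracted, 2 core genes were higher and 0 lower in Nfat5-KO_300 against Scr_300, 0 higher and 2 lower in Nfat5-KO_600 against Scr_600, and 4 core and 3 regulatory genes lower in Scr_600 against Scr_300, and the core median in Nfat5-KO_600 against Nfat5-KO_300 was -0.41. A mean of at least 20 FPKM kept the same core and regulatory genes, so their values could not move.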

Other observations

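Pseudogenes that derive from proteasome mRNAs were also listed with FPKM values. Of 29 copies of 15 proteasome genes with at least 90% identity, 9 reached 0.5 FPKM in a group. Gm13835, the copy of Psma3, was the most abundant. Gm4950, which shares 97.1% of 615 aligned bases with Psmb3, was at 21.2 FPKM in Scr_300, 17.0 in Scr_600, 22.9 in Nfat5-KO_300 and 14.2 in Nfat5-KO_600. Gm12989, which shares 97.5% of 734 bases with Psma5, was at 12.9 FPKM in Scr_300, 9.96 in Scr_600, 14.9 in Nfat5-KO_300 and 10.7 in Nfat5-KO_600. Each of these 3 had its highest value in Nfat5-KO_300. Among the 9, only Gm8394, a closer copy of Psma5 (98.6% of 952 bases), had its highest value elsewhere. Gm8394 was at 3.59 FPKM in Scr_300, 4.01 in Scr_600, 3.23 in Nfat5-KO_300 and 3.07 in Nfat5-KO_600. A copy of Psmc1, Gm9575 (93.9% of 1270 bases), was at 2.04, 1.504, 3.51 and 2.10 FPKM in Scr_300, Scr_600, Nfat5-KO_300 and Nfat5-KO_600. How reads that match a gene and its copy were counted is not given in the sources used here, and its part in the values of Psma3, Psma5, Psmb3 and Psmc1 was not tested.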
